A study of Mus musculus with 15 samples.

Results

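Kinesins are motor proteins that use ATP to move along microtubules or to shorten them. In this report their genes were compared in libraries from newborn mouse cerebellum in which the alpha and beta isoforms of glycogen synthase kinase 3 (GSK-3) are described as deleted or intact. Members were taken by symbol (Kif or Kifc followed by a number, with Klc1, Klc2 and Kifap3), without a cut on any measured value. Earlier results of these data were known when they were chosen. They came to 42 of 22180 genes: 13 mitotic kinesins, 18 transport kinesins and their subunits, and 11 others. Klc2, Kif25 and Kif28, which were also listed, are not analysed here. A gene was called near background where its mean was at or below 4.93 on the log2 scale, the 95th percentile of the means of 1394 olfactory and vomeronasal receptor genes. By that rule 35 members were above background, namely 11 mitotic, 17 transport and 7 other kinesins. The member nearest above the limit was Kif24 at 4.94, and the nearest below was Kif27 at 4.77.

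In dividing cells, mitotic kinesins separate the spindle poles, move chromosomes and build the midzone at which the cell is cut apart. In neurons, transport kinesins carry vesicles, mitochondria and other cargo along axons and dendrites. The postnatal cerebellum holds both kinds of cell side by side, because granule neuron progenitors divide in its outer layer and then leave the cycle and grow axons. GSK-3 phosphorylates many proteins, among them beta-catenin and several that bind microtubules.

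The 15 libraries form 3 labelled groups of 5, all of strain C57BL/6. In the group labelled GSK-3 DKO both isoforms are described as deleted in cerebellar granule neuron progenitors. In the Math1-Cre control the labels give Cre and the deletion of Gsk-3 beta alone, with the genotype Gska+- and GskBff, and in the No Cre control the same genotype without Cre and with the kinases described as intact. The description of No Cre control 5 leaves out the Gsk3b genotype, and no description spells out the Gsk3a alleles of the GSK-3 DKO libraries. Cre is driven by the promoter of Math1 (Atoh1), which is active in the progenitors and also in some other cells of the rhombic lip lineage. The age is given as postnatal day 1 in one field and day 2 in another. Each library is whole cerebella of 1 replicate, dissociated and, per the design text, enriched for progenitors on a density gradient. No label says whether litters were shared, and the spread between libraries that sets each p-value may in part be technical.

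The row annotated to Gsk3a, which also carries the symbol 9130221H12Rik, did not follow the labels of 4 libraries, and all libraries are named here by what they are labelled. In the libraries labelled GSK-3 DKO 1 to 5 this row lay at 9.47, 8.22, 9.37, 7.89 and 8.27. In Math1-Cre control 1 to 5 it lay at 8.25, 8.03, 9.48, 9.50 and 9.51, and in the No Cre control between 9.42 and 9.59. GSK-3 DKO 1 and 3 were thus at the level of the controls, while Math1-Cre control 1 and 2 were at the level of the other GSK-3 DKO libraries. GSK-3 DKO minus No Cre control was -0.86 (two-sided exact permutation p = 0.0238), against -0.31 for GSK-3 DKO minus Math1-Cre control (exact permutation p = 0.468) and -0.55 for Math1-Cre control minus No Cre control (exact permutation p = 0.167). Gsk3b had a mean of 10.78 ± 0.14, 10.78 ± 0.09 and 10.77 ± 0.10 (SD, n = 5 each), and a row that covers a whole transcript need not show the loss of an exon. Each comparison is therefore given over all 15 libraries and again over 11, without GSK-3 DKO 1 and 3 and Math1-Cre control 1 and 2. Genes that follow the Gsk3a row are not blind to that choice, which was known from an earlier look at these data. The 10 genes on the progenitor list, among them Atoh1, were all above background, with a mean level of 8.40 to 9.18 over the libraries. The mean level of the 6 Purkinje cell genes measured was 8.92 to 9.13. That of the 8 astrocyte and Bergmann glia genes was 7.94 to 8.54. Array levels of different genes are not comparable with each other, so these levels do not test whether progenitors were enriched. The spread of values over genes (interquartile range) was 4.00 in No Cre control 4 and 4.06 to 4.24 in GSK-3 DKO, against 4.31 to 4.40 in the other libraries.

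The mitotic kinesins had lower mean levels in the libraries labelled GSK-3 DKO than in the No Cre control. Of 13 mitotic kinesins, the 11 above background had a negative difference. These ran from -0.82 to -0.32 on the log2 scale over all 15 libraries, but none passed the threshold of 0.05 after Benjamini-Hochberg adjustment over all genes (limma). The 11 libraries were chosen by the measured Gsk3a row, and p-values over them do not allow for that choice. Over the 11 libraries, 6 mitotic kinesins fell, namely Kif22, Kif11, Kif18b, Kif2c, Kif15 and Kif4, against 0.64% of all genes. The count was 1 to 9 when 1 library was left out, and 2 with the array spread as a covariate. No transport kinesin passed in either fit. Because the libraries are bulk RNA, fewer dividing cells and less RNA per dividing cell cannot be told apart.

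The promoters of the kinesins with the lowest adjusted p over the 11 libraries are shown with that of Kif5c, a transport kinesin, for contrast. They are printed because Kif11, Kif22 and Kif18b fell over the 11 libraries and hold short elements known from promoters of cell cycle genes. Their matches are thus part of the choice and no result, and counts over all classes follow below. Whether the elements have a part in the fall was not tested. Sequences are from RefSeq, assembly GRCm38.p6, from 250 bases before to 50 after the start of the gene, in the direction of the gene. Capitals mark TTTGAA, the core of the cell cycle genes homology region (CHR), and CCAAT, the core of the CCAAT box, or their reverse complements TTCAAA and ATTGG. The windows lie at chr19:37376132-37376431 on the plus strand (Kif11), chr7:127042371-127042670 on the minus strand (Kif22), chr11:102925075-102925374 on the minus strand (Kif18b) and chr2:49619036-49619335 on the plus strand (Kif5c).
Kif11: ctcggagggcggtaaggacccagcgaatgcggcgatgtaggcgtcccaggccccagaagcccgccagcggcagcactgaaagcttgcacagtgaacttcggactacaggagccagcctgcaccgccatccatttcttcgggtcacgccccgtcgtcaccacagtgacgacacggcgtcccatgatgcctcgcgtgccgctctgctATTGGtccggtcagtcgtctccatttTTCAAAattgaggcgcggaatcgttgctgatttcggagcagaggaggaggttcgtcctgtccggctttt
Kif22: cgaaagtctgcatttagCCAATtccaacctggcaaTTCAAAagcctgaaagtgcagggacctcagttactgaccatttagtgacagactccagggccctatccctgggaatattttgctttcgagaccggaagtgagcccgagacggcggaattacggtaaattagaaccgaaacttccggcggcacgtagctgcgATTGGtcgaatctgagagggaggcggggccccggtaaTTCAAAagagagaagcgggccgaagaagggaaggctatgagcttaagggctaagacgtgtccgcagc
Kif18b: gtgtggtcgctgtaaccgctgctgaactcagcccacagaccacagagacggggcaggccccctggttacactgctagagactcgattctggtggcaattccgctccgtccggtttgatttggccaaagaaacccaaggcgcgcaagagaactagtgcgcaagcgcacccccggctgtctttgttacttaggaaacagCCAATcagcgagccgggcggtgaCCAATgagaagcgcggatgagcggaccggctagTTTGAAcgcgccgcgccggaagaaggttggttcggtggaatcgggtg
Kif5c: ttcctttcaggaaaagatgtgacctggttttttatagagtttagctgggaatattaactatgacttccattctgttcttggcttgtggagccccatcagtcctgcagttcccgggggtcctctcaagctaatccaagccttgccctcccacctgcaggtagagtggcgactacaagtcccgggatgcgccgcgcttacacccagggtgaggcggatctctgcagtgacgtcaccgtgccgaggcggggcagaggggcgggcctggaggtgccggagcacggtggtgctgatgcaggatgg
In Kif11 a CHR core began at position -19 and a CCAAT core at -45, counted from the start site. Kif22 had CHR cores at -215 and -17 with CCAAT cores at -233 and -54, and Kif18b had a CHR core at 3 with CCAAT cores at -53 and -30. The window of Kif5c held neither.

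Of the 42 kinesin genes, 34 had at least 1 promoter window in the RefSeq table, and they held 38 windows in all. TTTGAA on either strand was found in 10 of 12 mitotic kinesins (83.3%), 1 of 13 transport kinesins (7.69%) and 2 of 9 others (22.2%), against 20.2% of all 27025 genes with such a window. The transport kinesin that held it was Kif1a, at -44. CCAAT on either strand was found in 8 of 12 mitotic (66.7%), 4 of 13 transport (30.8%) and 4 of 9 other kinesins (44.4%), against 41.1% of all genes. Both were present in 7 of 12 mitotic kinesins and in 0 of 13 transport kinesins, against 7.97% of all genes, and the elements overlapped in 0 kinesin windows. The median GC content was 60.2% over the mitotic windows and 69.3% over the transport windows, against 52.7% over all windows, and the part of base content in these counts was not tested. A match is a string of letters and is not evidence that a factor binds there.

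Kif11 encodes the motor that slides antiparallel microtubules apart and so separates the spindle poles. Its level was 8.77, 8.07, 8.30, 8.37 and 8.69 in GSK-3 DKO 1 to 5. It was 8.48, 8.67, 9.09, 9.19 and 9.44 in Math1-Cre control 1 to 5. It was 9.36, 9.42, 9.15, 9.07 and 9.31 in No Cre control 1 to 5. Every GSK-3 DKO library was below every No Cre library, and Math1-Cre control 1 and 2 lay within the GSK-3 DKO range. Over 15 libraries the difference of GSK-3 DKO from the No Cre control was -0.82 ± 0.17 (SE; 1.77-fold lower, limma adjusted p = 0.0686). Over 11 libraries it was -0.89 ± 0.14 (1.85-fold lower, limma adjusted p = 0.0103), and without GSK-3 DKO 4 the limma adjusted p was 0.0633. Kif15, which can take over pole separation from Kif11, was at 7.91, 6.97, 7.69, 7.21 and 7.40 in GSK-3 DKO, 7.39, 7.29, 7.78, 7.87 and 8.21 in the Math1-Cre control, and 8.36, 8.10, 7.89, 7.72 and 7.95 in the No Cre control. GSK-3 DKO 1 overlapped the No Cre libraries, and the others lay below them. Its difference was -0.57 ± 0.19 over 15 libraries (limma adjusted p = 0.164) and -0.81 ± 0.15 over 11 (limma adjusted p = 0.0279), a call lost in 9 of 21 other settings.

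Kif22 and Kif4 encode chromokinesins, which sit on chromosome arms and push them toward the spindle equator, and Kif4 also acts at the midzone. Kif22 was at 6.53, 5.73, 6.46, 6.24 and 6.10 in GSK-3 DKO 1 to 5. It was at 6.19, 6.12, 6.64, 6.96 and 6.92 in Math1-Cre control 1 to 5 and at 7.12, 7.20, 6.79, 7.05 and 6.88 in No Cre control 1 to 5. The GSK-3 DKO libraries did not overlap the No Cre libraries. The difference was -0.80 ± 0.18 over 15 libraries (limma adjusted p = 0.0772) and -0.99 ± 0.13 over 11 (1.98-fold lower, limma adjusted p = 0.00452). Among the kinesins, Kif22 was the gene whose call against the No Cre control over 11 libraries held in all 21 other settings tried. Its limma adjusted p there ran from 0.00271 to 0.0458. Against the Math1-Cre control its call over 11 libraries was lost in 16 of 21 settings. All 21 keep the choice of libraries by the Gsk3a row, so they do not test that choice. Kif4 was at 7.19, 6.47, 7.14, 6.96 and 6.86 in GSK-3 DKO and at 6.83, 7.04, 7.48, 7.50 and 7.32 in the Math1-Cre control. In the No Cre control it was at 7.87, 7.67, 7.34, 7.15 and 7.61, so that No Cre control 4 lay below GSK-3 DKO 1. Its difference was -0.60 ± 0.17 over 15 libraries (limma adjusted p = 0.114) and -0.76 ± 0.16 over 11 (limma adjusted p = 0.0454), a call lost in 16 of 21 other settings.

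Kif18a, Kif18b and Kif2c encode motors that walk to microtubule ends or shorten them: Kif18a dampens the movement of chromosomes at the plate, Kif18b trims astral microtubules and Kif2c removes faulty attachments at kinetochores. Kif18b was at 8.26, 7.75, 8.33, 7.65 and 7.77 in GSK-3 DKO, 7.71, 7.67, 8.20, 8.40 and 8.67 in the Math1-Cre control and 8.56, 8.45, 8.28, 8.31 and 8.33 in the No Cre control. GSK-3 DKO 1 and 3 lay near the controls, and GSK-3 DKO 2, 4 and 5 with Math1-Cre control 1 and 2 formed a lower set with a range of 7.65 to 7.77. The difference was -0.43 ± 0.18 over 15 libraries (limma adjusted p = 0.241) and -0.66 ± 0.11 over 11 (limma adjusted p = 0.0137), a call lost in 4 of 21 other settings. Kif2c was at 7.23, 6.82, 7.25, 6.73 and 6.98 in GSK-3 DKO, 6.82, 6.94, 7.29, 7.35 and 7.34 in the Math1-Cre control and 7.56, 7.66, 7.42, 7.19 and 7.39 in the No Cre control. It split in the same way as Kif18b, with a difference of -0.44 ± 0.13 over 15 libraries (limma adjusted p = 0.130) and -0.60 ± 0.11 over 11 (limma adjusted p = 0.0208), a call lost in 8 of 21 other settings. Kif18a was at 6.77, 6.40, 6.96, 6.43 and 6.77 in GSK-3 DKO and between 6.70 and 7.50 in the No Cre control, which overlap. Its difference was -0.51 ± 0.19 over 15 libraries (limma adjusted p = 0.191) and -0.64 ± 0.18 over 11 (limma adjusted p = 0.146).

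Kif14, Kif20a, Kif20b and Kif23 encode kinesins of cytokinesis. Kif23 forms the centralspindlin complex with Racgap1, and Kif20a helps to move Aurora B to the midzone. Kif20a was at 7.15, 6.86, 6.97, 7.32 and 7.65 in GSK-3 DKO, 7.10, 6.98, 7.57, 7.59 and 7.98 in the Math1-Cre control and 7.98, 7.97, 7.76, 7.60 and 7.79 in the No Cre control. GSK-3 DKO 5 was the library of its group that reached the No Cre range, while GSK-3 DKO 1 and 3 stayed below it. Its difference was -0.63 ± 0.18 over 15 libraries (limma adjusted p = 0.120) and -0.54 ± 0.17 over 11 (limma adjusted p = 0.187). Kif14 differed by -0.46 ± 0.21 and -0.68 ± 0.17 over 15 and 11 libraries, Kif23 by -0.41 ± 0.18 and -0.47 ± 0.14, and Kif20b by -0.32 ± 0.14 and -0.35 ± 0.09. The limma adjusted p of these 3 genes lay between 0.260 and 0.271 over 15 libraries and between 0.0982 and 0.182 over 11. The remaining mitotic members were near background. Kif2b lay between 2.98 and 3.32 over the 15 libraries, and Kifc1, the minus-end motor that focuses spindle poles, between 3.35 and 4.48. The array row of the related gene Kifc5b lay between 3.99 and 4.76, so neither row gave a usable level.

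**Figure D1:**
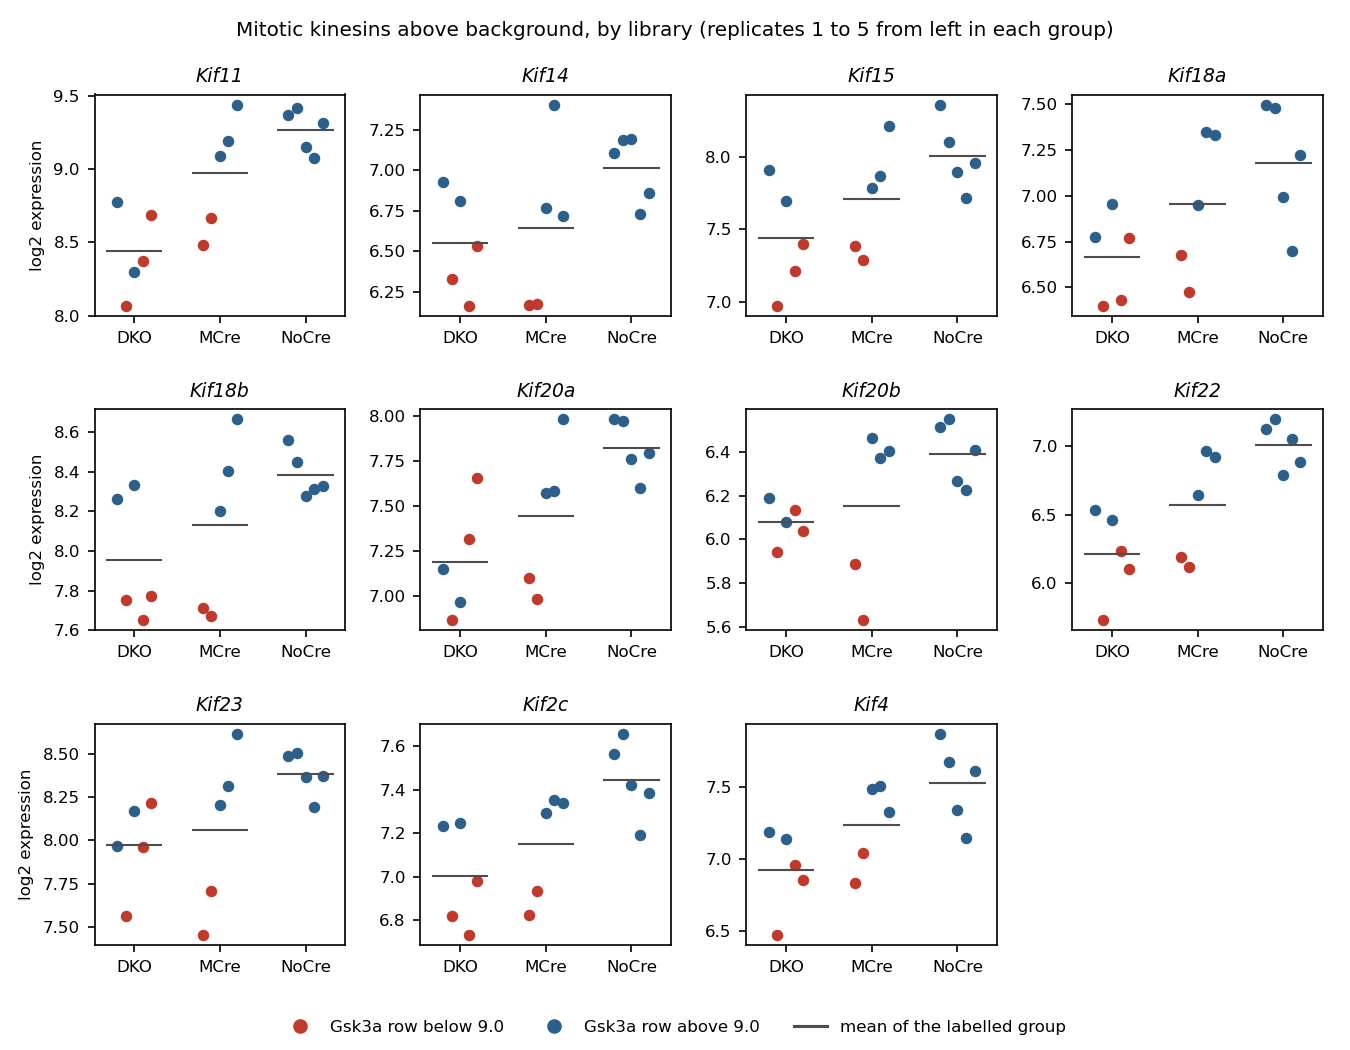
Log2 expression (vertical axes) of the 11 mitotic kinesins above background, with 1 point per library, replicates 1 to 5 from left in each labelled group (DKO, GSK-3 DKO; MCre, Math1-Cre control; NoCre, No Cre control), a line at each group's mean, and red or blue points for a Gsk3a row below or above 9.0. The GSK-3 DKO points of Kif11, between 8.07 and 8.77, all lie below the No Cre points, between 9.07 and 9.42.

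As a class, all 13 mitotic kinesins had a median difference of -0.46 over 15 libraries, against -0.02 for all genes. Of the 42 kinesins, 0 passed the adjusted threshold, against a background of 0.0541% of all genes lower and 0.018% higher. At an unadjusted p under 0.05, 12 of 42 were lower and 1 higher, against 11.9% and 5.54% of all genes, and 11 of the 12 were mitotic. Without 1 library at a time the adjusted count was 0 to 5. It was 5 without No Cre control 4 (Kif11, Kif20a, Kif22, Kif2c and Kif4) and 1 without GSK-3 DKO 5 (Kif11). Values did not overlap, with every GSK-3 DKO library lower, for Kif11, Kif20b and Kif22, against 1.96% of all genes.

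Over 11 libraries 6 of 42 kinesins were lower and 0 higher at the adjusted threshold, against 0.64% and 0.437% of all genes. At an unadjusted p under 0.05, 13 were lower and 0 higher, against 8.1% and 4.58%. The median over all 13 mitotic kinesins was -0.64, against -0.02 over all genes. Values did not overlap for 8 mitotic kinesins (the 6 that passed with Kif14 and Kif20b), with GSK-3 DKO lower, against 4.9% of all genes. Kif1a was the 1 kinesin with every GSK-3 DKO library higher, against 2.3% of all genes. The count of 6 was 3 without GSK-3 DKO 2, No Cre control 1 or No Cre control 2, 1 without GSK-3 DKO 4, and 9 without No Cre control 4. It fell to 2 with the array spread as a covariate, where Kif11 and Kif22 passed.

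The transport kinesins had values close to each other in the 3 groups. Kif5a, Kif5b and Kif5c encode the heavy chains of conventional kinesin, which with the light chain Klc1 carries vesicles and mitochondria toward axon ends. Kif5a was at 9.01, 9.07, 9.03, 8.85 and 8.95 in GSK-3 DKO, 9.05, 9.09, 9.12, 9.04 and 8.83 in the Math1-Cre control and 9.04, 8.85, 9.19, 8.84 and 8.98 in the No Cre control. Kif5b was at 9.75, 9.71, 9.88, 9.81 and 9.97, then 9.89, 9.94, 9.88, 9.89 and 10.02, then 9.92, 10.02, 9.94, 9.64 and 9.92 in the same order. Kif5c was at 11.02, 11.17, 11.20, 11.04 and 11.18, then 11.29, 11.28, 11.10, 11.27 and 11.26, then 11.14, 11.14, 11.20, 11.001 and 11.12. The groups overlapped for all 3 heavy chains. GSK-3 DKO minus No Cre control over 15 libraries was 0.00 for Kif5a (95% interval -0.17 to 0.17), -0.06 for Kif5b (-0.22 to 0.10) and 0.00 for Kif5c (-0.13 to 0.14). Klc1 lay between 10.49 and 10.73 over the 15 libraries.

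Kif1a carries precursors of synaptic vesicles and dense core vesicles. It was at 10.93, 10.90, 11.02, 10.92 and 10.93 in GSK-3 DKO, 10.91, 10.93, 11.01, 10.95 and 10.75 in the Math1-Cre control and 10.77, 10.77, 10.85, 10.75 and 10.89 in the No Cre control. Every GSK-3 DKO library was above every No Cre library, as in 0.622% of all genes, with a difference of 0.13 ± 0.06 (limma adjusted p = 0.283). Kif16b, a motor of early endosomes, was at 7.57, 7.51, 7.34, 7.17 and 7.13 in GSK-3 DKO, against 7.46 to 7.61 in the Math1-Cre control and 7.51 to 7.66 in the No Cre control. Its 3 lowest libraries were GSK-3 DKO 3, 4 and 5, and the difference was -0.21 ± 0.08 over 15 libraries (limma adjusted p = 0.225) and -0.28 ± 0.10 over 11 (limma adjusted p = 0.250). Kifc2, a motor of the minus-end class expressed in neurons, was the most scattered of the transport genes above background, at 8.52, 8.53, 8.39, 8.40 and 7.79 in GSK-3 DKO, 8.40, 8.45, 8.65, 8.30 and 7.41 in the Math1-Cre control and 8.14, 7.67, 8.23, 7.58 and 8.25 in the No Cre control. Its difference was 0.35 ± 0.21 (limma adjusted p = 0.401), and its groups overlapped.

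Kif3a, Kif3b, Kif3c and Kifap3 encode the motors and the accessory subunit of heterotrimeric kinesin, which also moves cargo into cilia. Kif3a was at 9.05, 9.11, 8.89, 9.07 and 8.98 in GSK-3 DKO, 9.25, 9.33, 9.33, 9.32 and 8.94 in the Math1-Cre control and 9.18, 9.14, 9.38, 8.98 and 9.25 in the No Cre control. It differed from the No Cre control by -0.17 ± 0.09 (limma adjusted p = 0.351). The ranges over 15 libraries were 7.80 to 8.33 for Kif3b, 8.98 to 9.20 for Kif3c and 9.01 to 9.56 for Kifap3. Kif1b, which carries mitochondria and vesicle precursors, ranged from 10.67 to 10.99, Kif1c from 5.93 to 6.67, Kif13a from 7.56 to 8.02 and Kif13b from 7.28 to 7.59. Kif21a and Kif21b, which also regulate microtubule growth, ranged from 9.21 to 9.42 and from 9.85 to 10.08. Kif17, a dendritic motor, was near background at 4.05 to 4.68.

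**Figure D2:**
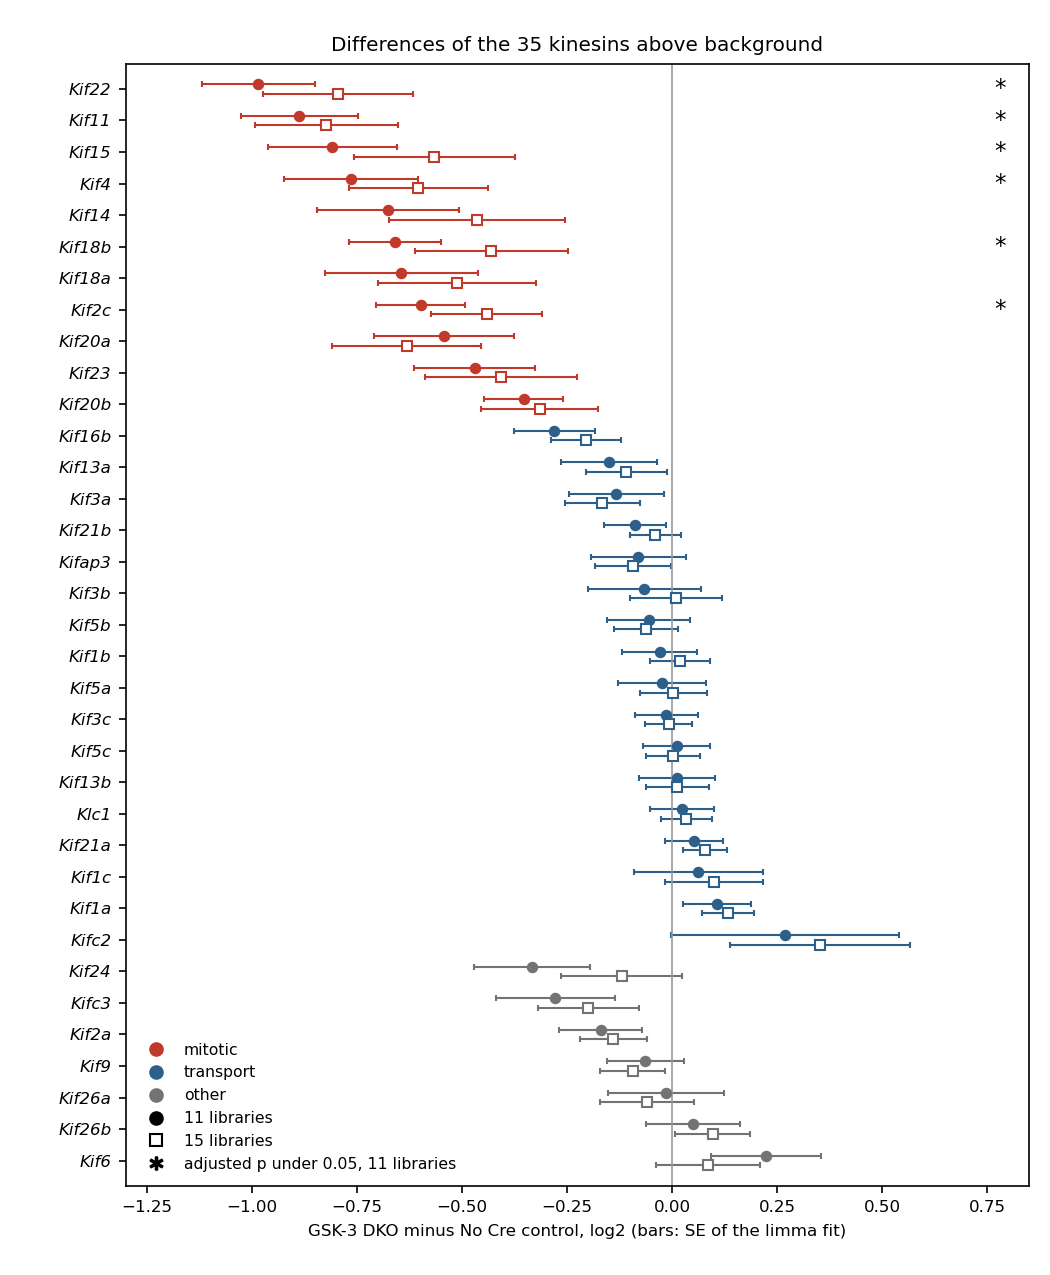
GSK-3 DKO minus No Cre control (horizontal axis, log2) for the 35 kinesins above background, coloured by class, over 11 libraries (filled circles) and over 15 libraries (open squares), with bars of 1 SE of the limma fit and an asterisk at an adjusted p under 0.05 over 11 libraries. The open squares of the mitotic kinesins run from -0.82 to -0.32, and those of the transport kinesins from -0.21 (Kif16b) to 0.35 (Kifc2).

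Over 15 libraries the median difference of all 18 transport kinesins was 0.00, and 1 was lower (Kif16b) and 1 higher (Kif1a) at an unadjusted p under 0.05, against 11.9% and 5.54% of all genes. Over 11 libraries the median was -0.02 and 1 was lower, Kif16b, against 8.1% of all genes. These counts are near or below the shares over all genes. Centring each array on its median raised all differences by 0.10 in both fits, so the median over the 17 transport genes above background had no settled sign (0.00 as deposited and 0.11 centred over 15 libraries, -0.02 and 0.07 over 11). The 95% intervals of the 17 transport genes above background all lay within -0.38 to 0.81 over 15 libraries and within -0.49 to 0.86 over 11. Kifc2 gave the upper bounds and Kif16b the lower bounds. The transport genes also varied less among the libraries: the range over 15 libraries had a median of 0.36 for the transport genes above background, from 0.21 (Kif21a) to 1.24 (Kifc2). For the mitotic genes above background it had a median of 1.16, from 0.92 to 1.47.

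Of the 11 other kinesins, 7 were above background and none passed the adjusted threshold in either fit, with 0 at an unadjusted p under 0.05 in GSK-3 DKO against the No Cre control over 15 libraries, against 11.9% of all genes lower and 5.54% higher. Kif2a, a microtubule depolymerase active in both neurons and spindles, was at 9.60, 9.67, 9.75, 9.60 and 9.53 in GSK-3 DKO, 9.68, 9.76, 9.81, 9.93 and 9.82 in the Math1-Cre control and 9.77, 9.78, 9.91, 9.50 and 9.88 in the No Cre control. Its difference from the No Cre control was -0.14 ± 0.08 (limma adjusted p = 0.375). Kif24, which acts at centrioles and restrains cilia, was at 5.30, 4.72, 5.09, 4.66 and 4.60 in GSK-3 DKO, close to background, and between 4.72 and 5.31 in the No Cre control. Over 11 libraries it differed by -0.33 ± 0.14 (limma adjusted p = 0.338), the single other kinesin lower at an unadjusted p under 0.05. Kifc3, a minus-end motor, was at 5.81, 5.61, 5.60, 5.40 and 5.52 in GSK-3 DKO, 6.00, 6.16, 5.81, 5.97 and 5.86 in the Math1-Cre control and 5.81, 5.70, 6.20, 5.41 and 5.82 in the No Cre control. Kif26a ranged from 5.70 to 6.44 over the 15 libraries, Kif26b from 7.81 to 8.35, Kif6 from 4.83 to 5.64 and Kif9 from 6.31 to 6.74. Kif7, Kif12, Kif19a and Kif27 were near background.

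The comparison of GSK-3 DKO with the Math1-Cre control has Cre on both sides and asks about the second isoform. It shares the GSK-3 DKO libraries with the comparison above. Over 15 libraries 0 of 42 kinesins passed, against 0.419% of all genes lower and 0.131% higher. At an unadjusted p under 0.05, 6 were lower and 0 higher, against 15.4% and 7.51% of all genes, and 1 of the 6 was mitotic. That gene was Kif11, with a difference of -0.53 ± 0.17 (limma adjusted p = 0.103). The median over the 13 mitotic kinesins was -0.18 and over the 18 transport kinesins -0.05, against -0.05 over all genes, and centring, which raised all differences by 0.14, turned the sign over the 17 transport genes above background (0.09). Kifc3 differed by -0.37 ± 0.12 (limma adjusted p = 0.108), and passed without No Cre control 4, the narrowest array, the single kinesin to do so. Values of the groups were apart for 0 kinesins, against 5.51% of all genes lower and 1.45% higher.

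Over 11 libraries this comparison set GSK-3 DKO 2, 4 and 5, with a Gsk3a row below 9.0, against Math1-Cre control 3, 4 and 5, above it. Its groups thus follow a measured row, and its p-values do not allow for that choice. Kif11 fell by 0.86 ± 0.16 (1.82-fold lower, limma adjusted p = 0.0342), Kif22 fell by 0.82 ± 0.15 (limma adjusted p = 0.0369) and Kif18b fell by 0.70 ± 0.12 (limma adjusted p = 0.0289). These 3 of 42 compare with 0.252% of all genes lower, and 0 were higher, against 0.289%. At an unadjusted p under 0.05, 15 were lower, 11 of them mitotic, and 0 higher, against 10.3% and 5.53% of all genes. The median was -0.62 over the 13 mitotic and -0.07 over the 18 transport kinesins, against -0.06 over all genes. Values did not overlap for 13 kinesins, all lower in GSK-3 DKO (9 mitotic, Kifap3, Kif24, Kif2a and Kifc3), against 16.9% of all genes, and 0 were wholly higher, against 7.48%. The 3 calls did not hold in most other settings: the count was 0 without GSK-3 DKO 2 or 4, Math1-Cre control 4 or 5 or No Cre control 2 or 5, 1 without GSK-3 DKO 5, Math1-Cre control 3 or No Cre control 1, and 5 without No Cre control 4.

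The comparison of the Math1-Cre control with the No Cre control asks about Cre together with the loss of Gsk-3 beta. None of 22180 genes passed in either fit (0% in both directions). Over 15 libraries 3 mitotic kinesins were lower at an unadjusted p under 0.05 and 0 kinesins higher, against 1.03% and 2.2% of all genes. Kif22 was among them, at -0.44 ± 0.18 (limma adjusted p = 0.9996). The median over the 13 mitotic kinesins was -0.29, against 0.02 over all genes, and Math1-Cre control 1 and 2 held the lowest values of this group for each of the 11 mitotic genes above background. The groups overlapped for all 42 kinesins, while 0.207% of all genes were wholly lower and 0.343% wholly higher. Over 11 libraries 0 kinesins were lower or higher at an unadjusted p under 0.05, against 0.568% and 1.63% of all genes, and the mitotic median was -0.05. The groups again overlapped for all 42 kinesins, against 0.803% of all genes wholly lower and 1.44% wholly higher.

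To show the libraries side by side, the mean difference of the 11 mitotic kinesins above background from their No Cre means was taken in each library. It was -0.32, -0.86, -0.39, -0.66 and -0.49 in GSK-3 DKO 1 to 5. It was -0.70, -0.70, -0.18, -0.01 and 0.05 in Math1-Cre control 1 to 5, and 0.18, 0.16, -0.09, -0.23 and -0.03 in No Cre control 1 to 5. GSK-3 DKO 1 and 3, whose Gsk3a row was at the control level, lay between the other GSK-3 DKO libraries and the No Cre libraries, though all 11 genes were below their No Cre mean in each of them. The same mean over the 17 transport genes above background was 0.05, 0.05, 0.04, -0.06 and -0.05 in GSK-3 DKO, 0.09, 0.07, 0.10, 0.10 and -0.06 in the Math1-Cre control and 0.06, -0.01, 0.09, -0.17 and 0.04 in the No Cre control. The lowest of these was No Cre control 4, where all 17 genes were below the group's mean and the array spread was narrowest.

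**Figure D3:**
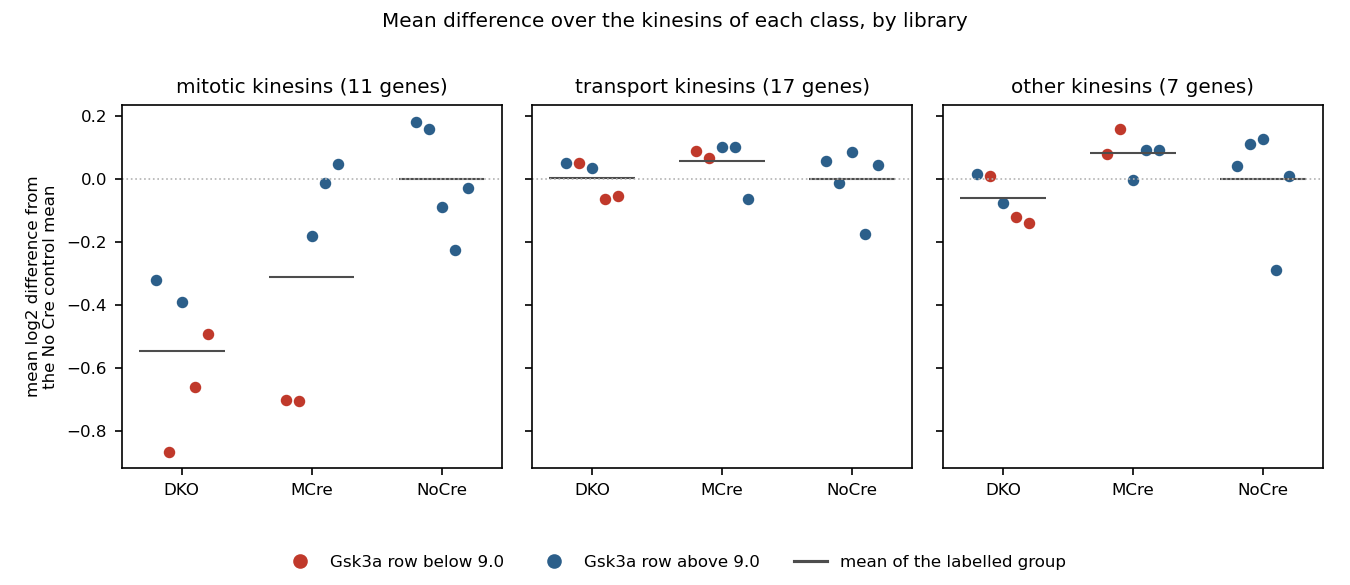
Mean log2 difference from the No Cre mean (vertical axis) over the 11 mitotic, 17 transport and 7 other kinesins above background, with 1 point per library in replicate order, a line at each labelled group's mean (DKO, GSK-3 DKO; MCre, Math1-Cre control; NoCre, No Cre control), and red or blue points for a Gsk3a row below or above 9.0. The mitotic means run from -0.86 to 0.18 and the transport means from -0.17 to 0.10.

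Set against the Gsk3a row, the libraries below 9.0 were GSK-3 DKO 2, 4 and 5 and Math1-Cre control 1 and 2. These 5 are no group of the study, and their values are given as a description. The 2 libraries nearest to the limit were at 8.27 and 9.37. For 6 of 13 mitotic kinesins all 5 of these libraries were below all 10 others, namely Kif14, Kif15, Kif18b, Kif22, Kif2c and Kif4. This held for 0 of 18 transport and 0 of 11 other kinesins, and for 0.843% of all genes. All 5 were above all 10 for 0 kinesins and for 0.663% of all genes. Kif18b had a lowest, median and highest value of 7.65, 7.71 and 7.77 in the 5 libraries and of 8.20, 8.33 and 8.67 in the 10. Kif22 had 5.73, 6.12 and 6.24 in the 5, against 6.46, 6.90 and 7.20 in the 10. Kif11 overlapped, with 8.07, 8.48 and 8.69 against 8.30, 9.17 and 9.44, because GSK-3 DKO 3 was at 8.30. Kif5c had 11.04, 11.18 and 11.29 against 11.001, 11.14 and 11.27, so its 2 ranges nearly coincided. The mean over the mitotic kinesins above background was -0.86, -0.70 and -0.49 (lowest, median, highest) in the 5 libraries and -0.39, -0.06 and 0.18 in the 10.

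**Figure D4:**
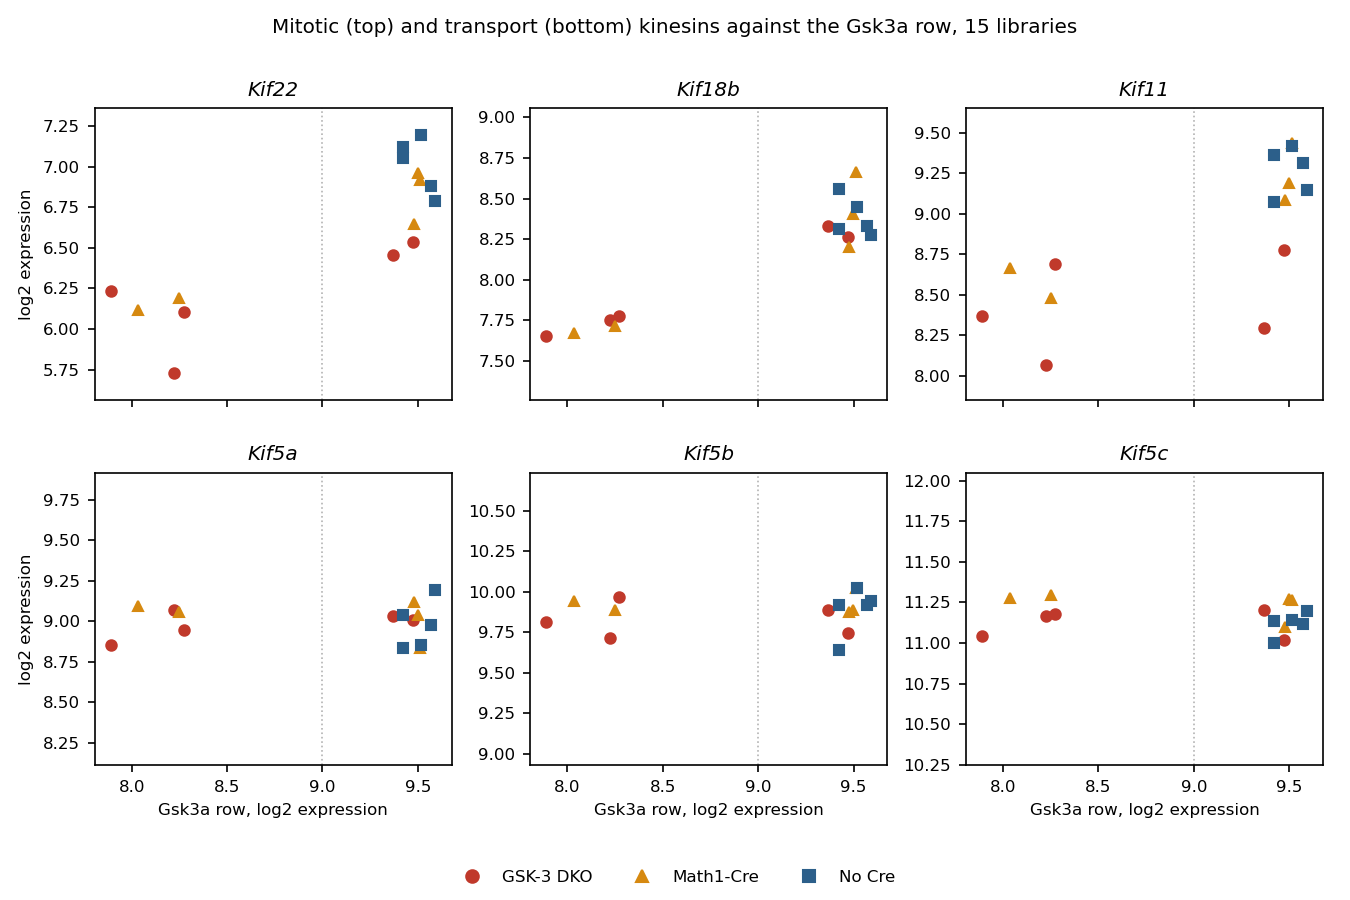
Log2 expression of Kif22, Kif18b and Kif11 (top) and of Kif5a, Kif5b and Kif5c (bottom) on the vertical axes against the log2 value of the row annotated to Gsk3a (horizontal axes), 1 point per library by labelled group, with a dotted line at 9.0. Kif18b lies between 7.65 and 7.77 left of the line and between 8.20 and 8.67 right of it, while the points of Kif5c run from 11.04 to 11.29 on the left and from 11.001 to 11.27 on the right.

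Other genes of the same processes were taken from lists. Of 14 measured partners of mitotic kinesins, 0 passed over 15 libraries in GSK-3 DKO against the No Cre control, 9 were lower at an unadjusted p under 0.05, against 11.9% of all genes, and the median was -0.47, against -0.02 over all genes. Over 11 libraries 4 fell, against 0.64% of all genes, namely Aurka (-0.78) and Aurkb (-0.64), the Aurora kinases of the spindle poles and the midzone, Racgap1 (-0.58) and Cenpe (-0.76 ± 0.14, limma adjusted p = 0.0249). Cenpe, itself a kinesin of kinetochores that the symbol rule does not reach, was at 7.80, 7.16, 7.37, 7.13 and 7.36 in GSK-3 DKO, 7.33, 7.37, 7.75, 7.82 and 8.11 in the Math1-Cre control and 8.34, 8.07, 7.86, 7.69 and 7.93 in the No Cre control. Of the partners of transport, 0 of 16 adaptors, 0 of 20 dynein and dynactin genes and 0 of 12 neuronal microtubule genes passed over 11 libraries. At an unadjusted p under 0.05, 2, 1 and 0 of them were lower, against 8.1% of all genes, and none higher, against 4.58%.

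Proliferation genes were set beside the mitotic kinesins. Over 11 libraries 5 of 10 fell in GSK-3 DKO against the No Cre control (Mcm3, Mybl2, Top2a, Ccna2 and Foxm1), against 0.64% of all genes. The median was -0.64, and all 10 were lower at an unadjusted p under 0.05, against 8.1% of all genes. Over 15 libraries 0 passed and 9 were lower at an unadjusted p under 0.05, against 11.9% of all genes. Their mean level was 8.11 to 8.70 in GSK-3 DKO, 8.18 to 8.96 in the Math1-Cre control and 8.72 to 9.10 in the No Cre control, and that of the progenitor genes was 8.46 to 8.87, 8.40 to 8.97 and 8.77 to 9.18. Of the 10 genes on the progenitor list, Nhlh1 (-1.20), Atoh1 (-0.80) and Mycn (-0.64) fell over 11 libraries, against 0.64% of all genes. Over 15 libraries 0 of the 10 passed and 3 were lower at an unadjusted p under 0.05, against 11.9% of all genes. How far each listed gene is confined to dividing progenitors was not tested. Mki67, a general marker of cycling cells, was at 9.17, 8.57, 9.42, 8.78 and 9.01 in GSK-3 DKO, 8.69, 8.79, 9.21, 9.36 and 9.71 in the Math1-Cre control and 9.80, 9.49, 9.21, 9.20 and 9.41 in the No Cre control. GSK-3 DKO 1 and 3 were again the highest of their group. The share of cycling cells was not measured, and its part in the kinesin differences was not tested.

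Of the other marker lists, differentiating granule neurons had 1 of 10 genes higher over 11 libraries (Gabra6, 1.70), against 0.437% of all genes. Gabra6 was near background by its mean over all 15 libraries. Over the 15 its difference was 1.01 ± 0.51 (limma adjusted p = 0.313), and 0 of the 10 genes passed. Over the 11 the mean of Gabra6 was 5.40 in GSK-3 DKO and 3.70 in the No Cre control. Of the 10 genes, 9 had a negative difference, with a median of -0.16, against -0.02 over all genes. At an unadjusted p under 0.05, 3 were lower and 1 higher, against 8.1% and 4.58% of all genes. No gene of the Purkinje cell, interneuron, brainstem, glia, microglia, vessel, meninges, choroid plexus or erythroid lists passed the adjusted threshold over 11 libraries. Of 10 Hox genes of the brainstem 9 were near background. The mean level of the 8 brainstem neuron genes measured ranged from 4.35 to 5.35 in GSK-3 DKO, 4.05 to 6.21 in the Math1-Cre control and 4.20 to 6.44 in the No Cre control, with Th, Chat, Slc18a3 and Nefh near background. That of the 8 endothelial genes ranged from 7.28 to 7.57, 7.51 to 7.90 and 7.34 to 7.89. All 8 had a negative difference in GSK-3 DKO against the No Cre control in both fits. The median was -0.26 over 15 libraries and -0.21 over 11, against -0.02 over all genes in each. At an unadjusted p under 0.05, 2 were lower over 15 libraries and 1 over 11, against 11.9% and 8.1% of all genes. The part of these cells in the results was not tested.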

How the data were processed

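RNA was hybridised to Affymetrix arrays, 1 per library, and the authors deposited log2 expression values, made with RMA, Partek 6.6 and genome build mm9 per the submitters' processing notes; their order is not given in the sources used here. As deposited they span 2.11 to 13.49, and they were not transformed further. The platform annotation gave 1 gene symbol for 23521 of 41345 rows, several for 1814 and none for 16010; rows with 1 symbol were kept, and the row with the highest mean stood for each of the 1082 genes with several rows. A mean per labelled group was fitted with limma 3.58.1 in R 4.3.3 to 22180 genes, with 12 residual degrees of freedom over 15 libraries and 8 over 11. Two-sided p-values were corrected per comparison by Benjamini-Hochberg, and genes under 0.05 were called. Single values were compared by exact permutation in Python 3.11.15. Settings tried were quantile normalization, centring, the array spread or the shared code as a covariate, trended and robust moderation, a filter at the 30th percentile, the mean of all rows of a gene, only the groups compared, a replicate block and libraries left out. All kinesin members were described; other genes were named where they passed within a list or were shown for comparison. The members and lists were chosen with earlier results of these data known. No count depth exists for arrays, and their number limits the precision.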

Additional observations from a re-analysis of the deposited data

Results flagged for a closer look

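Within each group of 5 libraries, the highest or lowest value was compared with its nearest neighbour for the 35 kinesins above background. Of 105 such groups 10 had a value that stood apart by Dixon's criterion, and chance gives about 1 in 20. Math1-Cre control 5 held 4 of them: Kif24 was at 5.23 there (the others at 4.87 to 4.94), Kif3a at 8.94 (9.25 to 9.33), Kif5a at 8.83 (9.04 to 9.12) and Kifc2 at 7.41 (8.30 to 8.65). Kifc2 was also low in GSK-3 DKO 5, at 7.79 (8.39 to 8.53), and these 2 libraries share a code in the labels with No Cre control 5. No Cre control 4, the narrowest array, was low for Kif6 at 4.83 (5.29 to 5.41) and for Kif5b at 9.64 (9.92 to 10.02). The others were Kif16b in No Cre control 1 at 7.66 (7.51 to 7.55), Kif3c in GSK-3 DKO 4 at 9.01 (9.06 to 9.07) and Kif5c in Math1-Cre control 3 at 11.10 (11.26 to 11.29). None was a mitotic kinesin, though this criterion can miss 2 libraries that stand apart together. Math1-Cre control 1 and 2 were both at -0.70 in the mean over the mitotic kinesins above background.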

How the results depend on the processing

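In GSK-3 DKO against the No Cre control, the differences of the 11 mitotic kinesins above background were negative in every setting of both fits. The median over these 11 ran from -0.76 to -0.56 over 11 libraries and from -0.63 to -0.39 over 15. Of the 6 kinesins lower over 11 libraries, 2 passed with the array spread as a covariate and 2 without the libraries of the shared code (Kif11 and Kif22 in both), and 3 with the 2 compared groups alone (Kif11, Kif18b and Kif22). Leaving out 1 library at a time gave 1 to 9. Over 15 libraries the count was 0, with 0 to 5 when 1 library was left out and 6 without the 4 libraries that do not follow their label in the Gsk3a row. In GSK-3 DKO against the Math1-Cre control, the 3 kinesins lower over 11 libraries became 0 with the array spread, with centring, with quantile normalization, with the 2 groups alone and without the libraries of the shared code, and 0 to 5 when 1 library was left out. Over 15 libraries the count was 0, with 0 to 1 when 1 library was left out and 3 without the 4 libraries.

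The replicate number as a block left 1 kinesin lower over 11 libraries in GSK-3 DKO against the No Cre control (Kif22) and 0 in GSK-3 DKO against the Math1-Cre control, and 0 in every comparison over 15 libraries. Deviations of libraries with the same number correlated at -0.30 to 0.30 and not every pair was above 0.1, so the numbers were not taken to pair the libraries. No kinesin was higher, and none changed between the controls, in any setting. No call changed sign. The median of the transport kinesins above background in GSK-3 DKO against the Math1-Cre control over 15 libraries went from -0.05 to 0.09 with centring, 0.05 with quantile normalization and 0.04 with the array spread, and over 11 libraries from -0.07 to 0.07, 0.05 and 0.04. Of 5898 values of single kinesins under other settings, 5370 kept their direction and side of the threshold, 83 lost a call, 22 gained one and 423 changed sign or moved without a call. Most of the 5898 belong to genes without a call, which cannot lose one. The 83 losses all fell on the calls over 11 libraries, each tried in 21 other settings. Against the No Cre control a call was lost in 0 (Kif22) to 16 (Kif4) of them, and against the Math1-Cre control in 13 (Kif18b) to 16 (Kif22). Levels near background can be compressed, which limits Kif24, Kifc1 and Kif2b.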

Other observations

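Kif5b, Kif7 and Kif27 have a second row on the array, which entered only the setting that takes the mean of all rows of a gene. The second Kif5b row lay at 4.87 to 5.72 over the 15 libraries, far below the 9.64 to 10.02 of the row used. The second rows of Kif7 and Kif27 lay at 3.56 to 4.55 and 3.78 to 4.11.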
